A study of Chrysanthemum x morifolium with 4 samples.

Results

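The comparison described here is freezing without prior cold acclimation against the untreated control in leaves of chrysanthemum (Chrysanthemum x morifolium, cultivar Jinba). It rests on 2 of the 4 RNA-seq libraries of the series, chosen by their treatment labels, and covers the 48004 of 93837 unigenes (51.2%) that had 10 or more counts summed over the 4 libraries. A unigene is a transcript sequence pieced together from the reads. The control seedlings were kept under normal conditions, and the frozen seedlings went straight to -4 °C for 4 h. The other libraries, used below only as reference points, came from seedlings held at 4 °C for 24 h (the acclimated library) and from seedlings given those 24 h at 4 °C and then 4 h at -4 °C (the acclimated-frozen library). All 4 groups shared the same origin: buds from tissue culture, grown for 20 days at 25 °C by day and 22 °C by night with a 16 h photoperiod, then 3 days in pots of peat and perlite.

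Each library was 1 pool of leaves from 3 replicates, which leaves the variation between plants unmeasured. The comparison therefore has no test and no p-value, and every interval below covers counting error only. The sources used here do not give the time of day at harvest, so its part in a difference and that of freezing cannot be told apart. Unigenes carry assembly identifiers and no gene names, so leaf identity could not be checked on marker genes and no pathway list could be counted. In a bulk leaf sample, fewer cells of a type and less RNA per cell cannot be told apart.

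As background, ice in a freezing leaf usually forms first between the cells and draws water out of them, which dries the cell interior and strains its membranes. In Arabidopsis a spell above freezing induces CBF transcription factors, which switch on COR genes, and the leaf gains tolerance by accumulating sugars and protective proteins and by remodelling its membranes. A plant frozen with no such spell has to meet ice formation without that preparation, and the comparison asks which transcripts differ after such an exposure.

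After sudden freezing a limited set of transcripts that were scarce in control leaves stood far higher, while some of the most abundant control transcripts stood lower. With libraries scaled by TMM (trimmed mean of M-values, which aligns the bulk of unigenes), 2479 unigenes were called higher, 5.16% of all, and 1024 were called lower, 2.13% of all. A call means that the whole 95% counting interval of the ratio frozen / control lay beyond 2-fold. As the control level enters that ratio, a low control level among higher calls partly follows from the rule. The same holds for a high control level among lower calls. The intervals of 16070 unigenes (33.5%) lay wholly within 2-fold, and these held 70.3% of control counts and 73.7% of frozen counts. The other 28431 unigenes (59.2%) could not be placed at this depth, but they held only 6.79% of control counts and 7.17% of frozen counts. Over all 48004 unigenes the median log2 ratio was 0.01, with quartiles of -0.50 and 0.71.

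**Figure D1:**
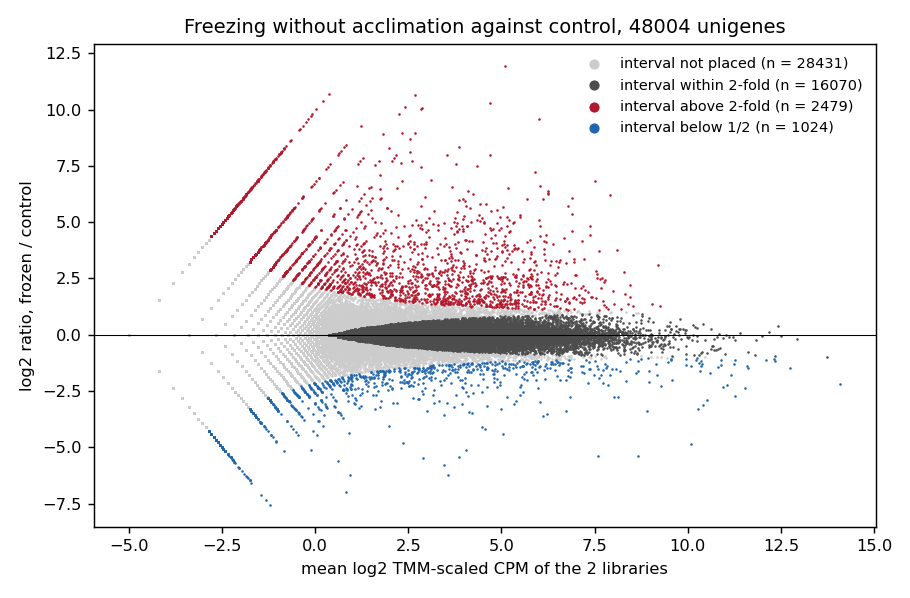
Each point is 1 of 48004 unigenes, with the mean log2 TMM-scaled CPM of the control and frozen libraries on the x axis and the log2 ratio frozen / control (prior count 0.5) on the y axis. Colours give the place of the 95% counting interval; the 2479 unigenes above 2-fold reach far larger ratios than the 1024 below 1/2, and the diagonal lines at the left are unigenes with 0 or few counts in a library.

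The lean towards the higher side grew with the size of the change. Beyond 4-fold there were 1106 higher unigenes (2.3% of all) and 174 lower ones (0.362%). Beyond 8-fold there were 518 higher (1.08%) and 42 lower (0.0875%), or 12.3 higher for each lower. Beyond 16-fold the counts were 246 (0.512%) and 16 (0.0333%), and beyond 32-fold they were 107 (0.223%) and 5 (0.0104%). Beyond 64-fold 54 unigenes were higher (0.112%) and 0 were lower. With an interval that only had to exclude equal levels, 9702 unigenes were higher (20.2%) and 8716 lower (18.2%). That balance is set by the scaling, with 13067 higher and 6124 lower under total counts and 8972 and 9647 under median-of-ratios factors.

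The other comparisons also leaned further to the higher side as the fold grew. The step from acclimated to acclimated-frozen leaves, which shares no library with the comparison, gave 2674 higher (5.57%) and 720 lower (1.5%) beyond 2-fold, 455 (0.948%) and 23 (0.0479%) beyond 8-fold, and 30 (0.0625%) and 1 (0.00208%) beyond 64-fold. Acclimation against the control, which shares the control library, gave 3741 higher (7.79%) and 3146 lower (6.55%) beyond 2-fold and 326 (0.679%) and 166 (0.346%) beyond 8-fold. It gave 117 (0.244%) and 37 (0.0771%) beyond 16-fold, 45 (0.0937%) and 5 (0.0104%) beyond 32-fold, and 20 (0.0417%) and 2 (0.00417%) beyond 64-fold. The share of calls beyond 2-fold that were higher was 70.8% for freezing without acclimation, 78.8% for freezing after it and 54.3% for acclimation. No test of these differences can be had with 1 library per treatment.

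**Figure D2:**
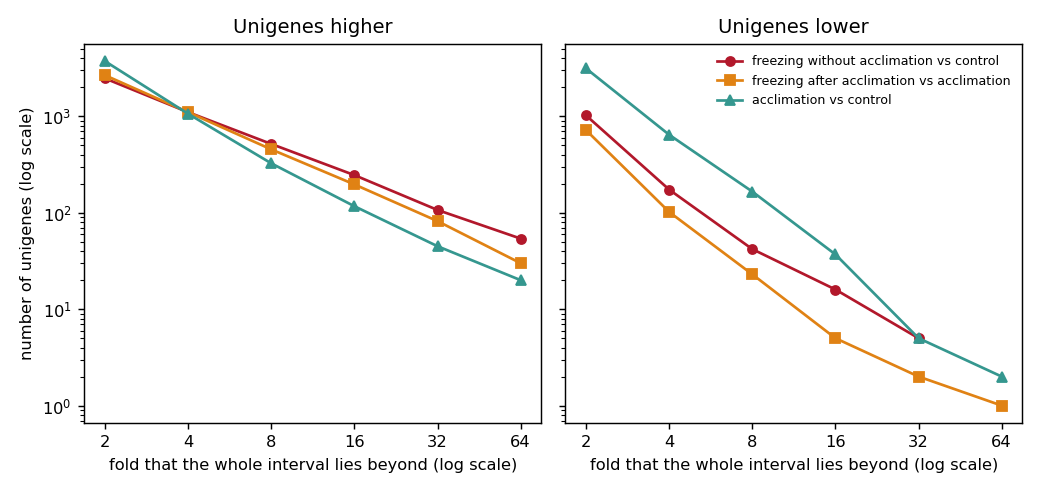
The number of unigenes (y axis, log scale) whose whole 95% counting interval lay beyond a given fold (x axis, log scale), higher on the left and lower on the right, in 3 comparisons; a count of 0 is not drawn. For freezing without acclimation the higher unigenes go from 2479 beyond 2-fold to 54 beyond 64-fold, and the lower ones from 1024 to 5 beyond 32-fold.

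The 2 unigenes with the highest lower limit of the ratio were nearly silent in control leaves. Unigene c114356.graph_c0 had 8 counts in the control, 69 counts in the acclimated library, 23152 counts in the acclimated-frozen library and 33868 counts in the frozen library. Its level was 0.635 FPKM in the control and 2957 FPKM after freezing, where it was the transcript with rank 12 by FPKM, against rank 35676 in the control. The log2 ratio was 11.93 (95% interval 11.04 to 13.23). Both frozen libraries were far above both unfrozen ones, and the acclimated library lay above the control.

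Unigene c113882.graph_c0 had 11 counts in the control and 10 counts in the acclimated library, against 13962 counts in the acclimated-frozen library and 14695 counts in the frozen library. The log2 ratio frozen / control was 10.29 (9.52 to 11.36), and that of the freezing step in acclimated leaves was 10.56 (9.75 to 11.69). The frozen libraries were alike to within a fraction of the change, and 24 h at 4 °C gave no detectable difference from the control (log2 ratio -0.05, interval -1.45 to 1.32). The lengths implied by the ratio of counts to FPKM were 798 bases for c114356.graph_c0 and 2141 bases for c113882.graph_c0.

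On the lower side, unigene c70228.graph_c0 had 1599 counts in the control, 439 in the acclimated library, 135 in the acclimated-frozen library and 21 in the frozen library. The log2 ratio frozen / control was -6.24 (-6.97 to -5.66). Its implied length was 203 bases, close to the shortest among the 48004 unigenes (201 bases). Unigene c88970.graph_c0 had 309 counts in the control, 112 in the acclimated library, 6 in the acclimated-frozen library and 2 in the frozen library, a log2 ratio of -6.98 (-10.35 to -5.43). In both of these unigenes the control was the highest library, the acclimated one came next and the unacclimated frozen one was the lowest. For c88970.graph_c0 the order of the 2 frozen libraries was not detectable, since the interval of their log2 ratio ran from -0.61 to 5.22.

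Ordered by the amount of transcript rather than by fold, the 10 largest gains turned mostly on unigenes of low or middling control level. Their levels ran from 0.511 to 4788 CPM in the control (median 22.4) and from 891 to 6274 CPM after freezing (median 1741). Together they made up 0.512% of control counts, 0.751% of acclimated counts, 1.36% of acclimated-frozen counts and 2.19% of frozen counts. Of the 10, 9 were called higher. The frozen library held the highest level of 7 of them, the acclimated-frozen library of 2 and the acclimated library of 1. As the unigenes were chosen on a high level in the frozen library, part of that split follows from the choice.

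The largest gain was c114356.graph_c0, and the next 3 were likewise high in both frozen libraries. The second had 435, 299, 26229 and 32743 counts in the control, acclimated, acclimated-frozen and frozen libraries, the third had 268, 535, 22131 and 31350, and the last of them had 36, 17, 21812 and 28482. In each of these 3 both frozen libraries lay far above both unfrozen ones, while the acclimated library lay below the control for the second and the last and above it for the third. Their ratios frozen / control were 73.9 (67.3 to 81.5), 115 (102 to 130) and 767 (561 to 1110).

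Other large gains did not keep to freezing. The fifth had 3157 counts in the control and 27047 in the frozen library, an 8.42-fold ratio (8.11 to 8.74), but it already had 31803 counts in the acclimated library and 25213 in the acclimated-frozen library. The tenth was like it, with 492, 10839, 8913 and 14205 counts in the same order of libraries. In these 2 unigenes all 3 cold-treated libraries stood above the control, and the freezing step in acclimated leaves moved them little. The sixth was the one gain not called, an abundant unigene at 4788 CPM in the control, 4498 CPM in the acclimated library, 2009 CPM in the acclimated-frozen library and 6274 CPM in the frozen library. Its ratio frozen / control was 1.31 (1.30 to 1.32), while the freezing step in acclimated leaves had a log2 ratio of -1.16 (-1.18 to -1.14).

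The seventh, eighth and ninth gains also stood out in both frozen libraries. The seventh had 229, 457, 4300 and 15533 counts in the order control, acclimated, acclimated-frozen and frozen, so the frozen library was well above the acclimated-frozen one. The eighth had 1173, 3382, 18713 and 16122 counts, with its highest level in the acclimated-frozen library. The ninth was c113882.graph_c0.

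The 10 largest losses were drawn from the top of the control library, and each had its highest level in the control. Their levels ran from 4421 to 37237 CPM in the control (median 7018) and from 203 to 9804 CPM after freezing (median 2367). They made up 11.01% of control counts and 3.71% of frozen counts, with 5.03% in the acclimated and 4.35% in the acclimated-frozen library. The unacclimated frozen library was the lowest of the 4 for 8 of these unigenes and the acclimated-frozen library for the other two. A large loss in CPM needs a high control level, and the unigenes were chosen on the control and frozen libraries. Their place at the top of the control, and the order of libraries, thus partly follow from the choice.

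The largest loss was the most abundant transcript of control leaves, with 583366 counts in the control, 260406 in the acclimated library, 195663 in the acclimated-frozen library and 130378 in the frozen library. It alone went from 3.70% of control counts to 0.909% of frozen counts, a ratio of 0.220 (0.218 to 0.221). The second largest had 301418, 215824, 188542 and 156335 counts, a ratio of 0.510 (0.506 to 0.513), and took the top rank by FPKM in frozen leaves. Both were lower in every cold-treated library than in the control, and lowest in the frozen library. The fourth loss was the deepest, with 91918, 17464, 11101 and 3234 counts, a ratio of 0.0346 (0.0334 to 0.0358), and went from rank 4 in the control to rank 246. The fifth ran the other way among the cold-treated libraries, with 7273 counts in the acclimated library, 4560 in the acclimated-frozen library and 15281 in the frozen library, against 99238 in the control. Of the 10 losses, 9 were called lower. None of the 10 was called lower at the freezing step in acclimated leaves, where only 1.5% of all unigenes were. Their log2 ratios at that step ran from -0.49 (rank 5) to 0.03 (rank 10).

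**Figure D3:**
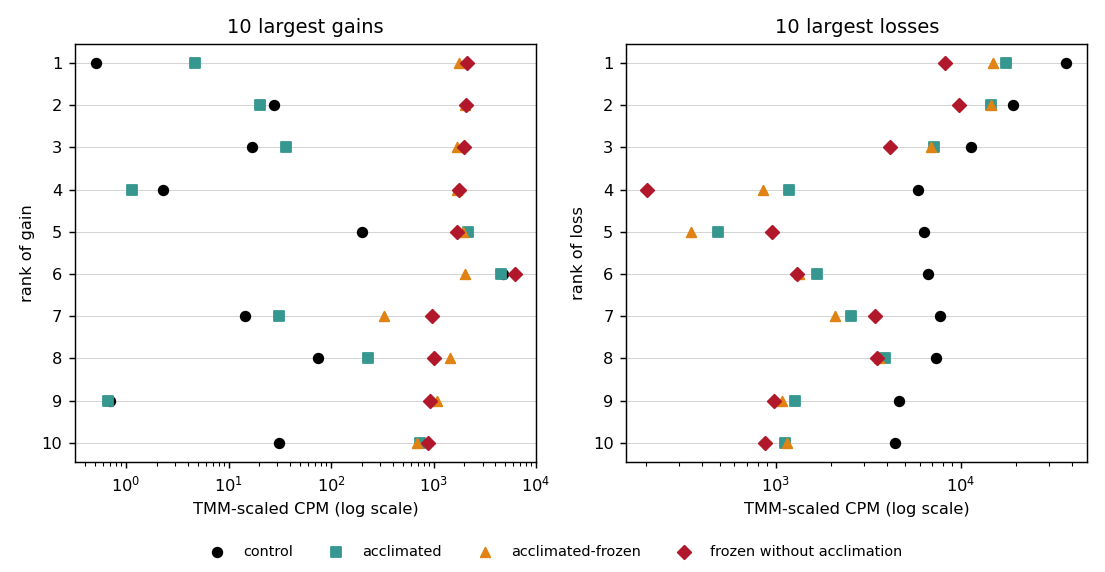
TMM-scaled CPM (x axis, log scale) of the 10 unigenes with the largest gain (left) and the 10 with the largest loss (right) from control to frozen, by rank (y axis), with 1 point for each of the 4 libraries. Among the gains both frozen libraries usually sit together at the right, far from the control, while among the losses all 3 cold-treated libraries sit to the left of the control.

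The loss was more concentrated than the gain. Summed over unigenes, gains came to 15.8% of the TMM-scaled library size and losses to 26.6%, a gap that the TMM factors set (0.993 for the control, 1.11 for the frozen library). With libraries scaled by total counts they were 21.8% and 21.9%, and the loss was again the more concentrated, with 24 unigenes holding 50% of it against 518 for the gain. The single largest loss was 10.9% of all loss, the 10 largest were 29.1% and 36 unigenes held 50% of it. On the other side the largest gain was 1.35% of all gain, the 10 largest were 9.21%, and 352 unigenes were needed for 50%. Unigenes called higher carried 56.8% of the gain, and those called lower carried 56.0% of the loss. The 10 most abundant unigenes of each library took 11.7% of counts in the control (Clopper-Pearson 95% interval 11.70 to 11.73%) and 6.40% in the frozen library (6.38 to 6.41%). In the acclimated library they took 7.40% and in the acclimated-frozen library 5.97%, so the lower share was not particular to freezing without acclimation.

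The most abundant transcripts of frozen leaves were mostly those of control leaves. Of the 100 unigenes with the highest FPKM in frozen leaves, 80 were also among the top 100 of the control, and 20 were not. Of those 20, 8 were called higher, 5 came from outside the control's top 1000 and 2 from outside its top 10000. Their median went from 490 FPKM in the control to 865 FPKM after freezing. It was 493 FPKM in the acclimated and 884 FPKM in the acclimated-frozen library. Of the 20 that left the top 100, 13 were called lower, and their median went from 984 FPKM to 541 FPKM. It was lower still in the acclimated (370 FPKM) and acclimated-frozen (264 FPKM) libraries. These unigenes were picked by their rank in the control and frozen libraries, so their directions between these follow from the choice. They are not to be read against the 5.16% and 2.13% called over all unigenes.

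More unigenes had no count in the control than in the frozen library. There were 2823 unigenes with 0 counts in the control (5.88%) and 1244 with 0 counts in the frozen library (2.59%). A unigene at 0 in one of these libraries passed the filter of 10 counts only through the other three. It could also be called in a single direction only. The calls below are therefore not to be read against the 5.16% higher and 2.13% lower over all unigenes. A count of 0 was taken to allow up to 3 counts, or 0.191 CPM in the control and 0.188 CPM in the frozen library. Of the 2823, 582 were called higher, with 10 to 828 counts after freezing (median 15). Set against 3 counts in the control, the ratios ran from 3.27 to 271 with a median of 4.91. The lower limits of the exact interval, which hold the counting error of both libraries, were smaller and ran from 2.20 to 220 with a median of 3.52. The one with 828 counts in frozen leaves had 0 counts in the control, 4 in the acclimated library and 716 in the acclimated-frozen library. Of the 1244, 229 were called lower, with 9 to 92 counts in the control (median 11). Set against 3 counts in the frozen library, their ratios control / frozen ran from 3.05 to 31.2, and the lower limits of the exact interval ran from 2.01 to 24.9. The one with 92 control counts had 9 counts in the acclimated library, 1 in the acclimated-frozen library and 0 in the frozen library. Of the 582, 227 had no count in the acclimated library, where their median was 1 count. In the acclimated-frozen library 45 had no count, and the median was 11. In 28 there was no count in either. Of all 48004 unigenes, 45426 had at least 1 count in the acclimated library and 45259 in the acclimated-frozen library.

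Among all listed unigenes, the frozen library showed more transcripts than any other. It had at least 1 count for 70769 unigenes, against 64898 in the control, 64379 in the acclimated and 64284 in the acclimated-frozen library. Thinned to the same depth of 14024558 counts the numbers were 70588, 63965, 63701 and 64284 in that order, so the frozen library exceeded the control by 6623 while the other three libraries lay close together. Much of the excess was in weakly seen unigenes, and the frozen library also had the most unigenes at higher cuts. At 10 or more counts, with no thinning, the frozen library had 31827 unigenes, the control 30863, the acclimated library 29451 and the acclimated-frozen library 29020. At 1 FPKM or more the numbers were 35388, 32513, 30673 and 31444 in that order. Neither cut is scaled by TMM. Scaling by total counts, as in FPKM, puts the log2 ratios frozen / control 0.16 above those under TMM. The excess at these cuts thus depends in part on the scaling, and how much was not tested. Counts in the frozen library and in no other were found for 6952 unigenes, with a median of 2 counts each and 0.136% of its counts in all. The same figure was 5149 unigenes and 0.101% of counts in the control.

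How often a unigene was called varied with its level, here taken from the acclimated libraries, frozen and not, which lie outside the comparison. Under 0.1 FPKM there, 5.14% of 1342 unigenes were called higher and 9.31% lower. At 0.1 to 1 FPKM the shares were 3.02% and 2.13% of 16465, at 1 to 10 FPKM 5.42% and 1.63% of 18777, and at 10 to 100 FPKM 7.24% and 1.56% of 10291. At 100 FPKM or more 13.3% of 1129 were called higher and 7.17% lower. Of all calls 82.2% were higher at 10 to 100 FPKM and 64.9% at 100 FPKM or more. The shares in the weakest class cannot be read in this way: each of its 1342 unigenes had fewer than 10 counts in the acclimated libraries together, so it passed the filter only with counts from the control or the frozen library. The other classes are not free of freezing either, since the acclimated-frozen library helped to set the level. In that library the median was 6.26 FPKM for unigenes called higher, against 0.585 FPKM in control leaves. For those called lower these medians were 0.827 and 5.26 FPKM. Part of the change in both shares with level thus follows from how the level was taken, and its size was not tested.

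Depth set most of what could be placed, but a ratio near 2-fold could also leave a well counted unigene unplaced. Of the 5340 unigenes with 1000 to under 10000 counts over the control and frozen libraries, 4.87% were not placed. With 0 counts in the control, a unigene needed 10 counts after freezing to be called higher, and with 10 control counts it needed 42. At 10 to 100 FPKM only 11.1% of unigenes could not be placed, against 93.2% at 0.1 to 1 FPKM. In the 10 to 100 FPKM class, 80.1% lay within 2-fold, and the interquartile range of log2 ratios was 0.59. In the same class it was 0.52 for the freezing step in acclimated leaves and 1.21 for acclimation against the control. Most well-measured transcripts were thus within 2-fold of the control after 4 h at -4 °C.

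**Figure D4:**
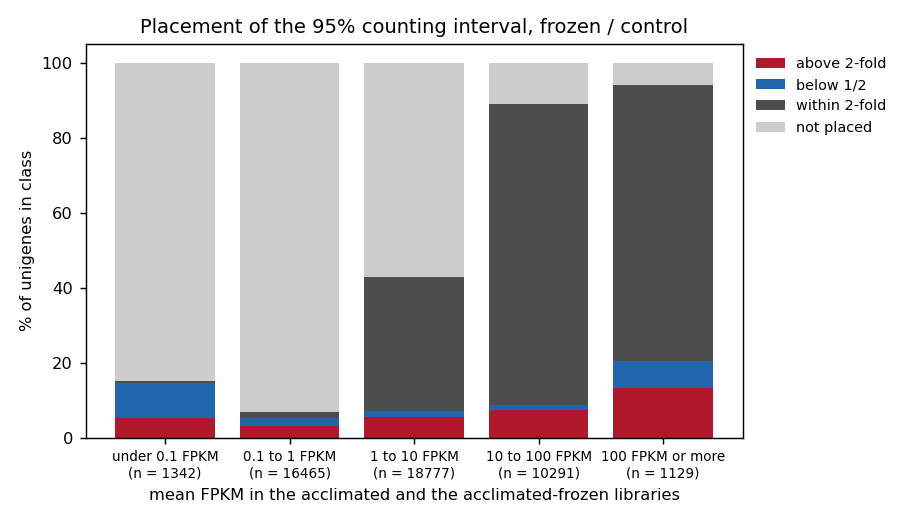
The share of unigenes (y axis, %) whose 95% counting interval of the ratio frozen / control lay above 2-fold, below 1/2, within 2-fold or in no such range, by mean FPKM in the acclimated libraries outside the comparison (x axis, n under each bar). The share not placed goes from 93.2% at 0.1 to 1 FPKM to 6.02% at 100 FPKM or more, where 13.3% lay above 2-fold and 7.17% below 1/2.

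Longer unigenes were called higher more often over all unigenes, but hardly so among those at 10 to 100 FPKM. The share called higher was 3.06% under 300 bases of implied length, 3.39% from 300 to under 500, 5.0% from 500 to under 1000, 6.67% from 1000 to under 2000 and 7.03% at 2000 bases or more. Longer unigenes also had more counts, with a median of 10 over both libraries under 300 bases and 1126 at 2000 or more. Within the 10 to 100 FPKM class the share called higher ran only from 6.55% to 7.58% over the same lengths. The share called lower in that class went from 7.58% of 66 unigenes under 300 bases to 1.17% of 2218 at 2000 bases or more.

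Some identifiers share their first part and differ only in the number at the end. The sources used here do not say what such a group stands for. There were 2304 groups with more than 1 unigene among the 48004, holding 4850 unigenes, of which 5.71% were called higher and 2.29% lower, close to the shares over all unigenes. In 232 groups at least 1 unigene was called higher, and in 43 of these at least 2 were. In 89 of the 232 another unigene of the group lay wholly within 2-fold. The 33.5% of all unigenes that lay there counts unigenes singly, so it is not a reference for groups. Opposite calls in 1 group occurred in 5 groups. These counts of groups have no reference value here. Over the 955 groups of 2 unigenes with 100 or more counts each, the log2 ratios had a Pearson correlation of 0.42 and a median difference of 0.45. These pairs share both libraries, and reads of near-identical sequences may be split between them.

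The larger the ratio without acclimation, the more often the same unigene was also called higher when acclimated leaves were frozen. Of the 1373 unigenes with an interval beyond 2-fold but not 4-fold, 35.03% were called higher at that step. The shares were 59.2% of 588 at 4 to 8-fold, 69.9% of 272 at 8 to 16-fold, 77.0% of 139 at 16 to 32-fold and 89.7% of 107 beyond 32-fold, against 5.57% of all unigenes. The classes differed in depth too, with a median of 47 counts in the frozen library in the first and 975 in the last. In the last class the median level was 0.259 FPKM in the control, 1.06 FPKM in the acclimated library, 47.1 FPKM in the acclimated-frozen library and 61.3 FPKM in the frozen library. The median log2 ratio in that class was 7.72 without acclimation (6.86 with counts of 0 set to 3) and 5.72 after it (5.33). The class was chosen on the ratio without acclimation, so part of that gap follows from the choice. No weaker response after acclimation is to be read from it.

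Among the unigenes called lower these shares were smaller, but so was the share over all unigenes. Among those beyond 2-fold but not 4-fold, 7.53% of 850 were also called lower at the freezing step in acclimated leaves, and 5.30% of 132 at 4 to 8-fold, against 1.5% of all unigenes. In the 3 larger classes it was 3 of 26, 4 of 11 and 4 of 5 unigenes. The acclimated libraries were already low: in the 2 to 4-fold class the median was 4.66 FPKM in the control, 1.57 FPKM in the acclimated library, 0.848 FPKM in the acclimated-frozen library and 1.01 FPKM in the frozen library. A low level in the acclimated library leaves few counts from which a lower call could be made at that step. The shares called higher and lower are thus not a like measure of the response on each side. Since these unigenes were chosen on a high control count, part of the gap between the control and the acclimated library follows from the choice.

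**Figure D5:**
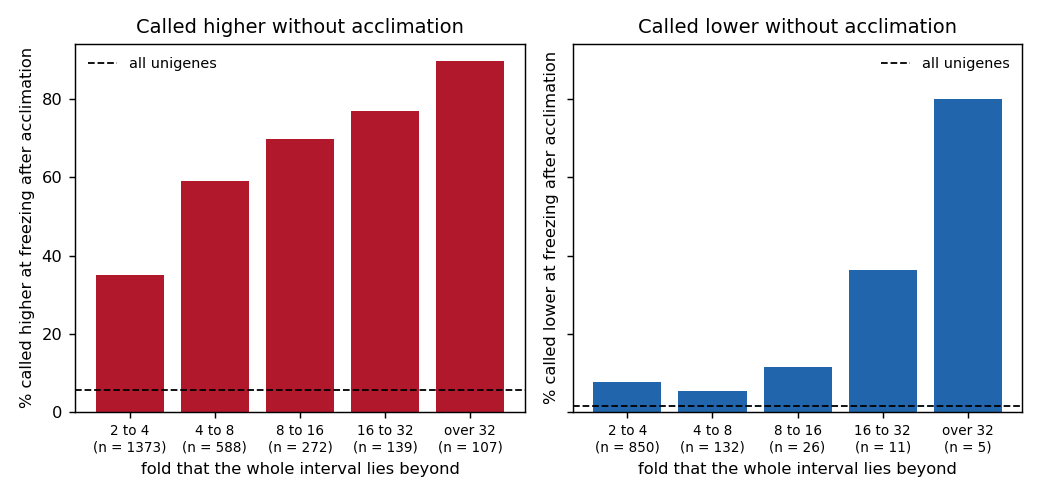
The share of unigenes (y axis, %) called higher (left) or lower (right) at the freezing step in acclimated leaves, by the fold that their interval lay beyond at freezing without acclimation (x axis, n under each bar); the dashed line is the share of all unigenes, 5.57% higher and 1.5% lower. The bars on the left go from 35.03% to 89.7%, and those on the right stay under 12% until the classes of 11 and 5 unigenes.

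The 2479 unigenes called higher peaked mostly in one or the other of the frozen libraries: 1159 were highest in the frozen library, 1168 in the acclimated-frozen library and 152 in the acclimated library. The unigenes were chosen on a high count in the frozen library, and the split depended on scaling, with 1403 and 941 under total counts and 1082 and 1248 under median-of-ratios factors. With the frozen libraries set against each other, 335 of the 2479 had an interval beyond 2-fold higher in the acclimated-frozen library, 313 had one beyond 2-fold lower, and 725 lay within 2-fold. Under total counts the balance was 238 higher and 421 lower, and under median-of-ratios factors 395 and 282, so the data give no fixed direction between the frozen libraries. Of the 1024 called lower, 438 had their lowest level in the frozen library, 410 in the acclimated-frozen library and 176 in the acclimated library. Of these 1024, 107 were beyond 2-fold higher in the acclimated-frozen library than in the frozen library and 55 were beyond 2-fold lower. These 1024 were chosen on a low count in the frozen library, so part of that balance follows from the choice. It is given under TMM only, and no direction is to be read from it.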

How the data were processed

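Per the labels' protocols, total RNA was extracted with Trizol and each library was made from mixed leaves of 3 replicates. The deposited counts are whole numbers per unigene, not normalized by the authors, and sum to 14024558 to 15781435 per library. The FPKM values deposited by the authors are scaled, per the file headers, by length and library total. Bowtie 0.12.2 and Cufflinks are named in the submitters' processing notes; the assembler, counting rule and use of strand are not given in the sources used here.

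Libraries were scaled by TMM over all 4 (edgeR 4.0.16, R 4.3.3). Ratios carry exact Clopper-Pearson 95% intervals of the frozen library's part in the summed counts of the pair (scipy 1.17.1), and log2 ratios a prior count of 0.5. Reads are not known to be independent molecules, so intervals and the limit of 3 counts cover counting error only. The calling rule was checked on simulated counts that held counting error only, so the check does not cover variation between plants. Known changes were placed only in the better counted unigenes, so recovery among weakly counted ones was not checked. Named by identifier were the 2 unigenes with the highest lower limit of the ratio and the 2 with the lowest upper limit. The 10 largest gains and losses in CPM are given by rank. Members, rules and classes were chosen with earlier results of these data known. Alternatives were another scaling, filter, interval, prior count and calling rule. At the filter, 1708 unigenes had exactly 10 counts, of which 23 were called, and 2020 with 9 counts were left out.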

Additional observations from a re-analysis of the deposited data

Results flagged for a closer look

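A few of the largest shifts went one way at freezing without acclimation and the other way at freezing after it, with both counting intervals excluding equal levels; the difference was not tested. The largest gains of rank 5 and 10, with log2 ratios of 3.07 and 4.82 without acclimation, had -0.15 and -0.10 after it. These are small changes in unigenes already raised in the acclimated library, with log2 ratios to the control of 3.41 and 4.54. The gain of rank 6 had 0.39 and -1.16. The loss of rank 10, at -2.34 without acclimation, had 0.0328 after it, where the interval ran from 0.00082 to 0.065. With libraries scaled by total counts this last value was -0.04 (-0.07 to -0.01), so its direction depends on the scaling. The 3 gains kept theirs under total counts and median-of-ratios factors. For the gain of rank 10 the value under median-of-ratios factors was close to equal levels, at -0.04 (-0.08 to -0.003).

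The unigenes under 10 counts, which enter no ratio above, were seen more often in the frozen library. Of 45833 such unigenes, 24009 (52.4%) had at least 1 count there, against 19717 (43.02%) in the control, 18953 (41.4%) in the acclimated and 19025 (41.5%) in the acclimated and frozen library. They held 0.395% of frozen counts and 0.304% of control counts.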

How the results depend on the processing

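Scaling moved every ratio: total counts shifted the log2 ratios by 0.16 and median-of-ratios factors by -0.05 relative to TMM. The share of calls that were higher was then 80.1% and 67.97%, and the summed gain 21.8% and 14.2%. Calls stayed within 1.5 times of those given under both, with 3007 and 2398 higher and 747 and 1130 lower. Without the filter the gain was 16.0% (13 lower calls were added, to 1037). With 100 or more counts there were 1565 higher and 521 lower calls, 75.02% higher, and a gain of 15.3%. An interval with an error level of 0.001 in place of 0.05 left 1531 higher and 438 lower calls (77.8% higher) and 24 lower beyond 8-fold. With an interval that only excluded equal levels, 9702 were higher and 8716 lower, so only 52.7% of calls were higher, and under that rule total counts gave 68.1% and median-of-ratios factors 48.2% (chosen after seeing the data). A difference of 1 in log2(FPKM + 1) gave 4387 higher and 1641 lower (72.8%), and in log2(FPKM + 0.1) 10198 and 5054 (66.9%). An assumed spread of 30% between libraries, chosen after seeing the data, left 1241 higher and 227 lower calls (84.5%), 262 and 15 beyond 8-fold, and 0 within 2-fold, since an interval of that width cannot fit between 1/2 and 2. A prior count of 2 gave median log2 ratios of 2.69 instead of 3.34 for unigenes called higher and -2.30 instead of -2.54 for those called lower. With counts of 0 set to 3 these medians were 2.71 and -2.08. The scalings of the levels in the frozen libraries, added after seeing the data, are given beside that result. No paired analysis was possible because each treatment has 1 library.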
